A study of Caenorhabditis elegans with 2 samples.

Results

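The nuclear hormone receptor genes of Caenorhabditis elegans were examined in peak lists from chromatin immunoprecipitation of eGFP-tagged ALY-2, a member of the ALY/REF family of messenger RNA export adaptors, in whole L1 larvae. The 273 members are the protein-coding genes whose name starts with nhr- together with daf-12, sex-1, odr-7 and unc-55, out of 19973 coding genes of the Ensembl annotation, release 115. Chromosome V held 167 of them, IV 33, X 26, I 24, II 15 and III 8. The 2 samples are biological replicates of 1 group, mixed-sex worms of the strain OP217, which carries unc-119(ed3) and the insertion ddIs172 that targets aly-2. Age beyond the larval stage was given as unknown, and 1 antibody label names aly-2 while the description names the eGFP fusion. No other genotype, treatment or stage was part of the study, so there was no comparison between conditions, and a peak in whole larvae does not say which cells it came from.

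Nuclear receptors are transcription factors with a zinc-finger domain that binds DNA and a domain that in many members binds a small lipophilic molecule, and many of them bind sites built from the hexamer AGGTCA. Nematodes carry far more of these genes than insects or vertebrates do. A few, such as nhr-23, nhr-25 and daf-12, have clear counterparts in other animals and act in moulting, larval development and the dauer decision, while most belong to a nematode expansion related to HNF4, much of it in tandem runs on chromosome V.

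The lists used, 4 in number, are on the ce11 build. The final list holds the 1446 peaks that passed the authors' threshold on the irreproducible discovery rate, and these are the 1446 highest entries of the pooled list of 15675. The pooled list and the lists of replicate 1 (26798 entries) and replicate 2 (25463 entries) were deposited as peaks together with background, and 13.8% of the pooled entries had a q-value of 0.05 or lower. A summit in the promoter window, from 1000 bp upstream to 200 bp downstream of a gene's 5′ end, or in the rest of the gene body, therefore marks a site in the final list but may be background elsewhere. Signal is the authors' own value per peak, on a scale not given in the sources used here. Ranks count from the highest signal of each list.

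ALY-2 peaks of the final list were rare at the receptor genes. In the promoter window they were found at nhr-1 on X, at nhr-47 and nhr-59 on V and at nhr-49, and nhr-17 alone had one in the gene body. The 4 promoter members are 1.47% of 273 (exact 95% interval 0.401 to 3.71%), against 5.58% of all coding genes. The single body member is 0.366% (0.00927 to 2.02%), against 1.99% of all coding genes. Both intervals cover counting error only, and neighbouring members that arose by duplication are not independent. The promoter interval ends below the share of all coding genes, and the body interval includes that share. Of coding genes on V, where 167 of the members lie, 3.54% had a final promoter summit, which the promoter interval includes. Members on V had one at 2 of 167 (1.20%, 0.145 to 4.26%). Members with a pooled promoter summit numbered 57 (20.9%, 16.2 to 26.2%), against 24.9% of all coding genes, and 55 to 57 of the members had one in the list of a single replicate trimmed to the same length. With single lists trimmed to 1446 entries in place of the final list, 2 members had a promoter summit by replicate 2 alone and 6 by replicate 1 alone, and 3 had a summit in the body only by either. Among entries with a q-value of 0.05 or lower, a limit chosen after the values were seen, 6 members (2.20%) had a pooled promoter summit, against 7.49% of all coding genes. Of coding genes on V, 4.67% had one at that limit. The share of members was thus below that of all coding genes in the well-supported part of the list. Over the whole list the interval includes the share of all coding genes.

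The sequences under 5 of the strongest member sites are given because the sites differ in what else is annotated there: the summit at nhr-1 was in no other coding promoter window, nhr-47 and nhr-59 shared theirs with a divergent neighbour, and the sites at nhr-17 and nhr-255 lay by transfer RNA genes. Each is read from RefSeq WBcel235, the assembly of ce11, on the strand of the receptor gene, and runs up to 200 bases around the summit, cut back where an annotated UTR begins. Capitals mark AGGTCA or its reverse complement, GTTCGANNC (the core of the B box, an internal promoter element of transfer RNA genes) or its reverse complement, and AGACGCAG or its reverse complement, a motif picked out after these sequences were seen. In nhr-255 the B box core and its reverse complement overlap.
nhr-1 (chrX:17513688-17513887, plus strand): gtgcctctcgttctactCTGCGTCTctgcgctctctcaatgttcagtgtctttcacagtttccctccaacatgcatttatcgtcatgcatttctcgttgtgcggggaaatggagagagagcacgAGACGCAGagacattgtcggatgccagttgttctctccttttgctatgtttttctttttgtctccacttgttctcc
nhr-47 (chrV:5505111-5505252, plus strand): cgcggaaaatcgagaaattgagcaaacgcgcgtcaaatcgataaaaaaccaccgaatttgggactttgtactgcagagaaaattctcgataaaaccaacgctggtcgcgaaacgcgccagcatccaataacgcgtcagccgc
nhr-59 (chrV:2278266-2278428, minus strand): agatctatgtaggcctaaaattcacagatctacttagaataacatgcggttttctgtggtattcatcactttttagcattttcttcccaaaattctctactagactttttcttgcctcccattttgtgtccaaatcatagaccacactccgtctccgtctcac
nhr-17 (chrX:12665113-12665312, minus strand): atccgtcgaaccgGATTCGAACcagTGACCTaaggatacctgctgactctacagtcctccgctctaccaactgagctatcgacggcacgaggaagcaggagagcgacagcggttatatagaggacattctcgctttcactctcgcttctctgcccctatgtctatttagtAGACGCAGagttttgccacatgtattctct
nhr-255 (chrX:15742022-15742221, plus strand): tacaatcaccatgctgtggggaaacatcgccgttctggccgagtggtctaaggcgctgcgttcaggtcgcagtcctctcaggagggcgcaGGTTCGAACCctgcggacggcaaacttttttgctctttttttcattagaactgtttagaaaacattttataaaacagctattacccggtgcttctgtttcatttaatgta

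nhr-1, which has no role stated here, had a pooled signal of 55.3 at rank 818. Replicate 1 gave 26.9 (rank 931) and replicate 2 gave 30.2 (rank 832), so it was one of the few members with near-equal standing in both lists. The summit at X:17513788 lay 275 bp upstream of the gene's 5′ end. The sequence holds AGACGCAG once on each strand, 1 copy on either side of the summit.

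The site at nhr-47 had a pooled signal of 47.7 at rank 1149, with 28.4 in replicate 1 and 15.5 in replicate 2. Its summit at V:5505211, 42 bp upstream of the gene, also lay in the promoter window of dnj-19, which encodes a DnaJ co-chaperone, and inside the non-coding gene C24G6.10. nhr-59 had 46.02 at rank 1233, with 28.4 in replicate 1 and 17.3 in replicate 2. Its summit at V:2278329, 64 bp upstream, also lay in the promoter window of the F-box gene fbxa-137. In both genes replicate 1 gave the higher rank (822 against 4451 for nhr-47, and 824 against 3272 for nhr-59). A peak in a shared window cannot be assigned to either gene.

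The strongest summit of any member was in an intron of nhr-17, at X:12665213, with a pooled signal of 71.9 at rank 459. Replicate 1 gave 44.8 (rank 271) and replicate 2 gave 30.4 (rank 821), so the site stood high in both. It lay 2641 bp inside the gene and 15 bp from a transfer RNA gene at X:12665228-12665311, which lies on the strand opposite to nhr-17. The promoter window of nhr-17 itself reached only 17.7 (rank 12226) and had no summit in replicate 1. The next case, nhr-255, fell just outside the final list with 39.99 at rank 1656, 24.8 in replicate 1 and 13.4 in replicate 2. Its summit at X:15742122 was inside a transfer RNA gene at X:15742050-15742133, 488 bp upstream of the receptor gene. These 2 were the only ones of 112 distinct member summits within 200 bp of a transfer RNA gene, which is 1.79%, against 4.08% of final peaks and 1.32% of the other pooled peaks. Whether the peaks belong to the transfer RNA genes was not tested.

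nhr-142 was the member nearest below the final threshold, with a pooled signal of 42.0 at rank 1487, against 42.7 for the lowest final peak. Its summit lay 556 bp upstream of nhr-142 and nearer to the 5′ end of F44E7.9. After nhr-142 and nhr-255 the pooled promoter signal fell to 33.0 in nhr-58. No further member had a pooled promoter summit with a q-value of 0.05 or lower.

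nhr-49, a receptor that controls fatty acid desaturation, beta-oxidation and the fasting response, had the highest promoter signal of all members. The pooled signal was 64.3 at rank 595, with 39.5 in replicate 1 (rank 364) and 25.1 in replicate 2 (rank 1274). Its summit at I:9869313 lay 338 bp upstream of the gene and 249 bp past the 3′ end of K10C3.5, and no other coding promoter window held it. nhr-49 and nhr-1 were the only members whose promoter summit had a q-value of 0.05 or lower in both replicate lists, against 5.19% of all coding genes. The gene body of nhr-49 held 2 further pooled summits, the higher at 27.0 (rank 4016).

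**Figure D1:**
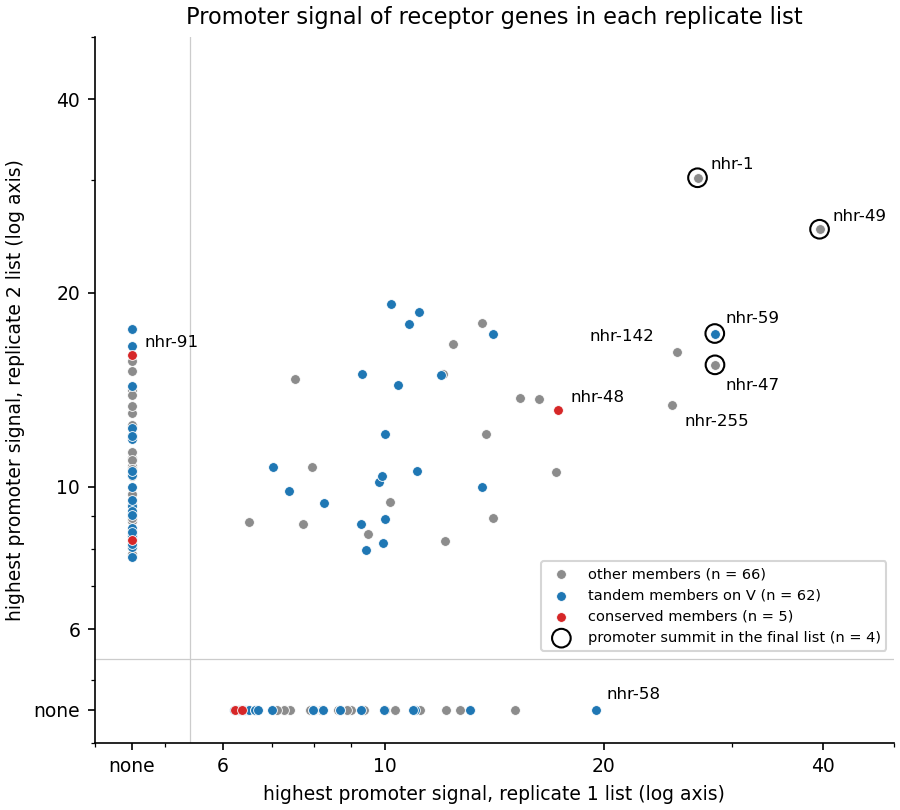
Highest promoter signal of each member in the replicate 1 list (x axis) and the replicate 2 list (y axis), both on log axes, for the 133 members with a promoter summit in at least 1 of them; "none" marks no summit. The 4 circled members of the final list lie at 26.9 or higher in replicate 1, and apart from nhr-142 and nhr-255 all other points lie below 20 in both.

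The replicate lists overlapped in part at the receptor genes. Each replicate list had a promoter summit at 87 members (31.9%), against 34.9% of all coding genes in replicate 1 and 33.7% in replicate 2. Only 41 members (15.02%) had one in both, against 21.5% of all coding genes, and 46 had one in each list alone. Thus 47.1% of the members found in replicate 1 were also found in replicate 2, against 61.5% of all coding genes found there. On V, 14.97% of the 167 members had a promoter summit in both lists, against 15.2% of coding genes on V. Of the 94 non-conserved members off V, 15.96% had one in both. The members also ranked low in each list beside all coding genes. Their median promoter rank in replicate 1 was 11314, against 9127 for all coding genes and 11093 for coding genes on V. In replicate 2 it was 12431, against 8933 for all coding genes and 10534.5 for coding genes on V. The part of rank in the overlap was not tested. Across the 41 shared members, Spearman's rho between the replicate signals was 0.54, and across all shared coding genes 0.66. These are descriptions across genes of 2 libraries, without a test. The clearest disagreements were nhr-58, at 19.5 (rank 1925) in replicate 1, and nhr-148 and nhr-263, which share 1 summit at 17.6 (rank 3140) in replicate 2, each with no promoter summit in the other list. nhr-232 appeared in replicate 1 alone at 15.1, and nhr-102 in replicate 2 alone at 16.6.

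The pooled promoter summits of members stood in the lower part of the list. The median pooled signal of the 57 was 21.3, against 24.8 for all coding genes with a summit. Of the 57, 4 were in the final list, which is 7.02%, against 22.4% of all coding genes with a pooled promoter summit. By the rank of the highest summit, 5.13% of members were at ranks 1447 to 5000, 6.96% at ranks 5001 to 10000 and 7.33% lower. The same shares for all coding genes were 6.84, 6.48 and 6.02%. The members were therefore thin in the top 1446 ranks beside all coding genes, and close to them in every later band. Of coding genes on V, 3.54% were in the top 1446 ranks. Most member promoter summits, 53 of 57 (93.0%), lay nearest to the member's own 5′ end, against 80.3% of all coding genes with a summit. In another coding promoter window lay 17.5%, against 34.6%. Nearness does not assign a peak to a gene, and the 53 include the shared sites at nhr-47 and nhr-59. The median space upstream of a member was 1598 bp, against 936 bp for all coding genes.

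**Figure D2:**
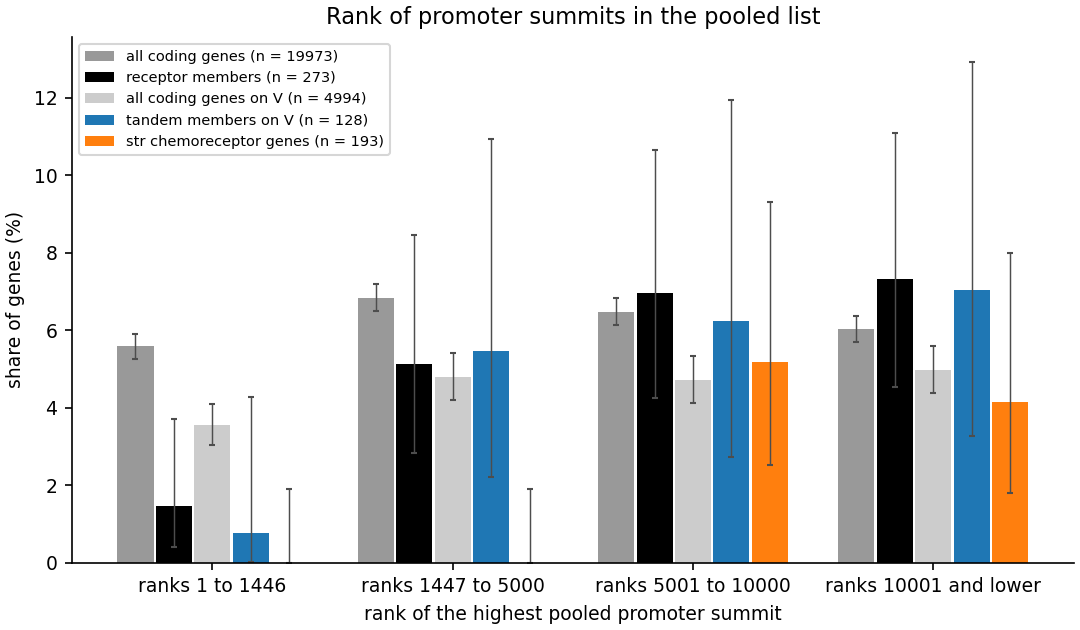
Share of genes whose highest pooled promoter summit falls in each band of ranks, for all coding genes, receptor members, coding genes on V, tandem members on V and str chemoreceptor genes; error bars are exact 95% intervals. Members reach 1.47% in the first band, against 5.58% of all coding genes and 3.54% of coding genes on V. In the other bands they lie near the share of all coding genes.

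The conserved receptors had no final peak, in a list too short to set them apart from the background. None of the 13 (nhr-6, nhr-8, nhr-23, nhr-25, nhr-41, nhr-48, nhr-67, nhr-85, nhr-91, nhr-111, daf-12, sex-1 and unc-55) held a final summit, in promoter or body, which leaves an exact 95% interval from 0 to 24.7%, against 5.58% of all coding genes in the promoter and 1.99% in the body. Pooled promoter summits were found at 3 of 13 (23.1%, 5.04 to 53.8%), against 24.9% of all coding genes, and none of the 3 had a q-value of 0.05 or lower. They were at nhr-48, a relative of the vitamin D and DHR96 receptors, at 25.3 (rank 4767), at nhr-91, the relative of germ cell nuclear factor, at 23.4 (rank 5805), and at nhr-67, the tailless homologue, at 16.1 (rank 15623). nhr-48 was the only conserved member with a promoter summit in both replicates, at 17.3 in replicate 1, where its q-value was under 0.05, and 13.1 in replicate 2, where the entry that overlaps the pooled peak had 8.38. nhr-91 had a promoter summit in replicate 2 alone, at 15.99, and a replicate 1 entry of 6.98 overlapped the pooled peak with its summit outside the window. With 13 genes, neither a share as low as that of the whole family nor one well above the background is outside the interval.

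Several of the conserved genes had a weak summit inside the gene. A pooled body summit was found in 6 of them, which is 46.2% (19.2 to 74.9%), against 22.8% of all coding genes. nhr-25, the Ftz-F1 homologue needed for moulting, had 24.2 in its 3′ UTR, with 9.20 at that site in replicate 1 and 15.9 in replicate 2. daf-12, the receptor for dafachronic acids in the dauer decision, had 3 pooled body summits, the highest 23.9 (rank 5495), with 11.1 at that site in replicate 1 and 14.2 in replicate 2. nhr-91 had 22.97, nhr-85, the relative of Rev-erb and E75, had 20.4, sex-1, an X-linked signal of chromosome number in sex determination, had 18.9, and nhr-111 had 16.7. None of the 6 had a q-value of 0.05 or lower. The conserved genes are long, with a median of 5472 bp against 2027 bp for all coding genes. Per 100 kb of gene body they had 8.08 pooled summits, against 14.4. The lower density was not seen in the replicate lists. There it was 26.3 in each, against 26.1 for all coding genes in replicate 1 and 24.2 in replicate 2. The interval of the share includes the background, and among genes of 5 kb and longer 4 of 9 conserved genes (44.4%) had a body summit, against 59.1% of all coding genes.

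The other 5 conserved members had no pooled summit in the promoter window or the gene body. nhr-6, the NR4A homologue, had no summit in any list. nhr-23, the ROR homologue that drives moulting, had 4 body entries in replicate 2 alone, the highest 11.1 (rank 11363). nhr-41 had body entries of up to 10.1 in replicate 1 and 14.9 in replicate 2 but none in the pooled list. nhr-8, which acts in xenobiotic response and cholesterol balance, and unc-55, the COUP-TF homologue that sets motor neuron identity, were listed in replicate 1 alone, at up to 8.4 and 7.4. fax-1, a conserved receptor whose name falls outside the rule, had a single promoter entry of 6.96 in replicate 1.

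**Figure D3:**
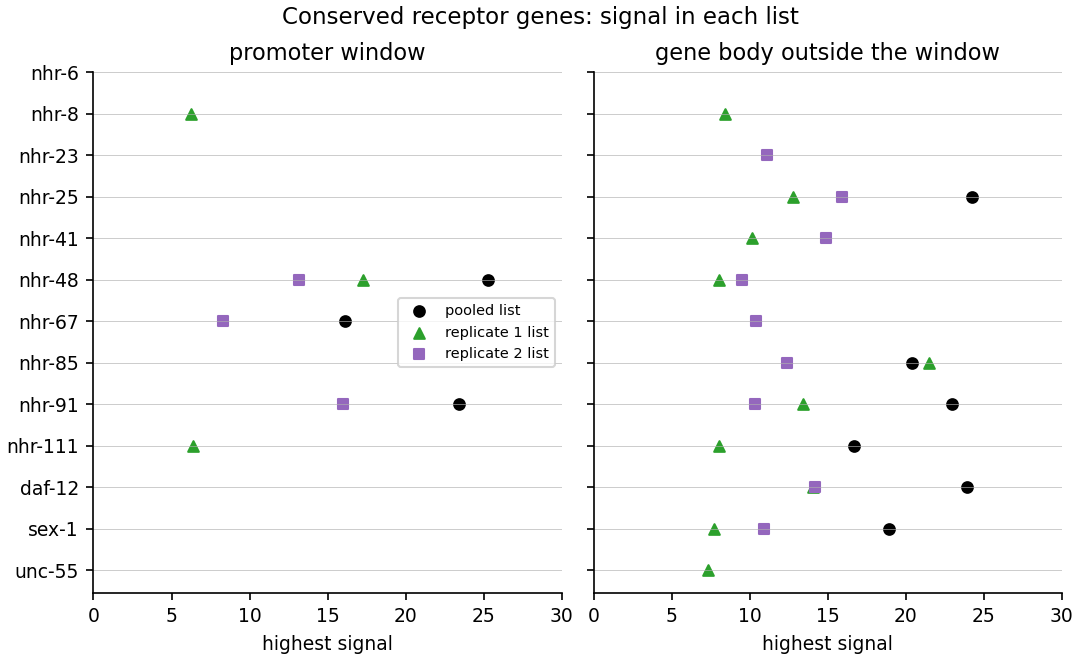
Highest signal of each of the 13 conserved members in the promoter window (left) and in the rest of the gene body (right), in the pooled, replicate 1 and replicate 2 lists; a missing point means no summit. The highest pooled point is nhr-48 at 25.3 in the promoter window, below 42.7, the lowest signal of the final list on the same pooled scale.

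The expanded tandem genes of chromosome V had a final peak at 1 gene. Their shares of genes with a pooled summit were near those of coding genes on V, in promoters and gene bodies. Their density of body summits was lower than that of coding genes on V. Members on V that are not on the conserved list and lie within 20 kb of another made 30 runs with 128 genes, of 2 to 12 genes each. Only nhr-59 was in the final list by its promoter (0.781%, 0.0198 to 4.28%), against 3.54% of coding genes on V, and the interval includes that background. Pooled promoter summits were at 25 of 128 (19.5%, 13.1 to 27.5%), against 18.0% of coding genes on V. The interval of the tandem share lies inside that of the conserved share, so the promoter counts do not separate the groups. Body summits were at 18 of 128 (14.1%, 8.55 to 21.3%), against 16.3% of coding genes on V and 6 of 13 conserved genes, and the interval includes the first and overlaps that of the second. The tandem genes had a median length of 2123 bp, against 1754.5 bp for coding genes on V and 5472 bp for conserved genes. Their density of 6.98 pooled body summits per 100 kb stood beside 8.08 in the conserved genes and 11.7 over coding genes on V. In replicate 1 the densities were 18.7, 26.3 and 22.4 in that order, and in replicate 2 they were 16.9, 26.3 and 21.1. All 38 other non-conserved members on V stood alone, and 12 of them (31.6%, 17.5 to 48.7%) had a pooled promoter summit.

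The runs differed in how many members had a summit. Of the 30 runs, 12 had at least 1 member with a pooled promoter summit and 18 had none. Of coding genes on V, 18.0% had a pooled promoter summit, so many runs of few genes would have none at that share. Whether the spread over the runs differs from what their sizes give was not tested. The 12 runs of 4 or more genes held 87 members, of which 21 had one, and the 18 shorter runs held 41 members, of which 4 had one. The run at V:2257420-2296977, with 9 genes from nhr-182 to nhr-226, had 4 members with a pooled summit, and nhr-59 was its highest. The run at V:1603906-1629432, with 7 genes, had 4, led by nhr-117 at 26.5. The run at V:3844429-3908452, with 10 genes, had 4, led by nhr-156 at 22.04. In the other runs of 4 or more genes the leading genes were nhr-58 at 33.0, nhr-42 at 25.9, nhr-44 at 23.7, nhr-154 at 22.2, nhr-98 at 21.3 in the largest run of 12, and nhr-148 with nhr-263 at 16.2. The shorter runs with a summit were led by nhr-50 at 31.2 (11.9 in replicate 1 and 14.9 in replicate 2), nhr-68 at 30.4 and nhr-102 at 25.3. By contrast, the runs at V:2192485-2235180 with 10 genes, at V:15674007-15702363 with 8 and at V:15770268-15813104 with 5 had no pooled promoter summit. The pair nhr-101 and nhr-68 was the only run in which every member had one.

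**Figure D4:**
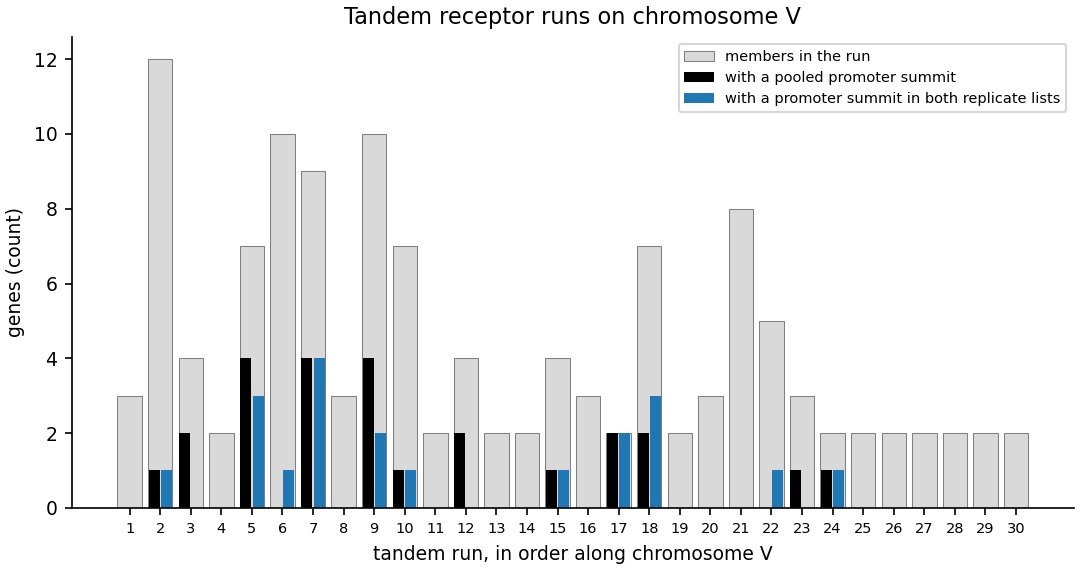
The 30 tandem runs on chromosome V in order along the chromosome (x axis) with the number of member genes (grey), of members with a pooled promoter summit (black) and of members with a promoter summit in both replicate lists (blue). Most runs have 0, and the highest count is 4.

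In the runs, the summit upstream of a receptor gene lay just downstream of another receptor gene for 8 of 25 members. Runs are by definition receptor genes that lie close together, so a receptor as neighbour is in part given by that rule. Of the 25 tandem members with a pooled promoter summit, 10 had it within 500 bp past the 3′ end of another coding gene, and in 8 of these that gene was itself a receptor. Of all coding genes with a pooled promoter summit, 1093 of 4979 (21.95%) had it there. The summit of nhr-102 lay 137 bp past the 3′ end of nhr-84, and others lay past the ends of nhr-219 (nhr-44), nhr-117 (nhr-179), nhr-209 (nhr-154), nhr-123 (nhr-98) and nhr-101 (nhr-68). The median space upstream was 890 bp for tandem genes and 944 bp for coding genes on V. Near-identical copies were not common in these windows: the median share of 31-base words that occur once in the genome was 100% for tandem members, and 2 of 128 windows (1.56%) were under 50%, against 3.30% of all coding genes. How reads with several matches were handled is not stated.

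Away from V, receptor genes on X had the most summits. Of 26 members on X, 9 (34.6%) had a pooled promoter summit, against 20.4% of coding genes on X, and 15 (57.7%) had a body summit, against 23.9% of coding genes on X. The members on X are long, with a median of 4402 bp against 2548 bp for coding genes there, and the part of length was not tested. On chromosome I, by contrast, 2 of 24 members (8.33%) had a pooled promoter summit, against 32.9% of coding genes there, and 1 of them was nhr-49. Besides nhr-1 and nhr-255, the higher promoter sites on X were nhr-3 at 30.01 (15.3 in replicate 1 and 13.7 in replicate 2) and nhr-71 at 28.4 (17.2 and 10.5). The counts per chromosome are small, and these chromosomes were singled out after the values were seen.

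Body summits followed gene length. In all, 58 members (21.2%, 16.5 to 26.6%) had a pooled body summit, against 22.8% of all coding genes, and the highest lay in introns for 29 of them, in coding sequence for 18, in a 3′ UTR for 10 and in a 5′ UTR for 1. Of members under 2 kb, 7.53% had one, of those between 2 and 5 kb 17.7%, and of those of 5 kb and longer 66.7%. For all coding genes the shares were 8.36, 26.3 and 59.1%. After nhr-17 the highest were nhr-34 at 40.5 (rank 1618, beside a promoter signal of 26.5), nhr-46 at 39.8, nhr-19 at 39.5 and nhr-66 at 37.9, and these 5 were the only ones with a q-value of 0.05 or lower. At the same sites, nhr-34 had 21.4 in replicate 1 and 17.6 in replicate 2, and nhr-46 had 17.3 and 24.8. nhr-19 had 26.2 and 16.02, and nhr-66 had 20.7 and 17.96. The first 3 lay in introns, that of nhr-34 974 bp upstream of the start of another of its own transcripts, and that of nhr-66 lay in the 3′ UTR, past the 3′ end of serp-1.2. All 5 genes lie off chromosome V.

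**Figure D5:**
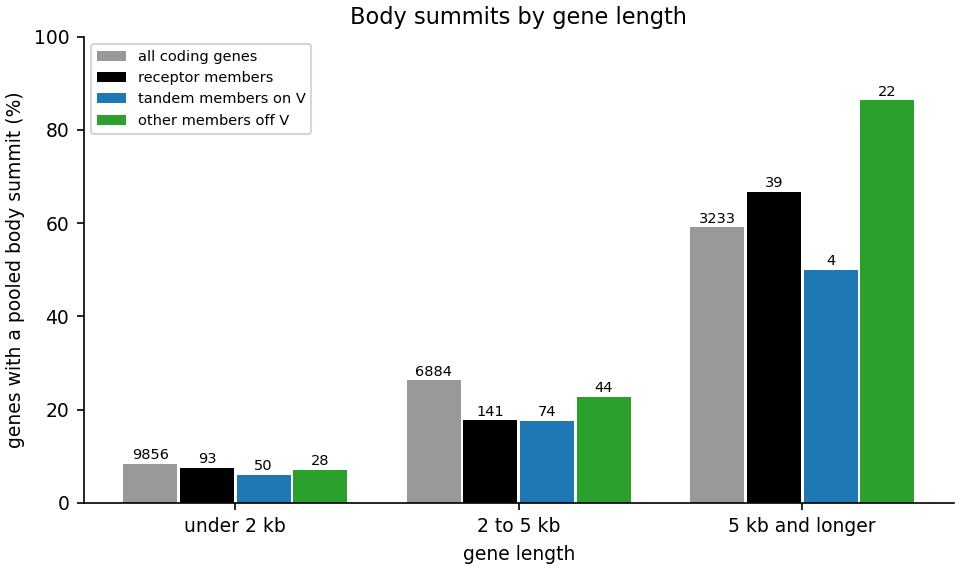
Share of genes with a pooled body summit in 3 classes of gene length, for all coding genes, receptor members, tandem members on V and the other non-conserved members off V; the number above each bar is the number of genes. The share rises with length in every group, from 7.53 to 66.7% of members.

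By role, the list of receptors of fat, propionate and diet metabolism had the highest share of pooled promoter summits. In this list of 10, 6 (60.0%, 26.2 to 87.8%) had a pooled promoter summit, against 24.9% of all coding genes. After nhr-49 came nhr-68, which with nhr-10 switches on the propionate shunt, at 30.4 (11.1 in replicate 1 and 18.7 in replicate 2). That summit lay nearer to the 5′ end of H12C20.7 than to nhr-68. nhr-10 had 28.6 (12.02 and 14.97) and nhr-64 had 24.2 (10.9 and 17.97). nhr-80, a partner of nhr-49 in fatty acid desaturation, and nhr-114, which protects the germline when vitamin B12 is short in the diet, were at the bottom of the pooled list with 16.6 each. nhr-13, another partner of nhr-49, had no summit in any list, nhr-62 and nhr-66 had body summits only, and nhr-69 had entries of 7.3 in replicate 1 alone. The list was drawn up with earlier results of these data known, so its share supports no statement beyond these 10 genes.

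The other lists had smaller shares, and both intervals include the 24.9% of all coding genes. Of 9 receptors of moulting and larval development, 3 (33.3%, 7.49 to 70.1%) had a pooled promoter summit (nhr-48, nhr-67 and nhr-91, given above). Of 5 receptors of xenobiotic and hypoxia response, 2 (5.27 to 85.3%) had one: nhr-86, a sensor of a bacterial metabolite in the intestine, at 23.5 (16.3 in replicate 1 and 13.7 in replicate 2), and the hypoxia-induced nhr-57 at 21.2, with a promoter summit of 15.7 in replicate 2 alone. At nhr-57 a replicate 1 entry of 8.99 overlapped the pooled promoter peak, with its summit outside the window. nhr-45 had a body summit of 23.4, found at that site in replicate 2 alone (21.5). nhr-176, which controls a cytochrome P450 gene in the breakdown of thiabendazole, had only weak body entries in the replicate lists. odr-7, which specifies the AWA olfactory neuron, and nhr-2, expressed in the early embryo, had no summit in any list. Over all members, 81 (29.7%) had no summit in the window or the body in any list, against 32.9% of all coding genes.

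Among genes that act with the receptors, cbp-1 and acs-2 held summits with higher signals than any receptor gene. Both summits also lay in the promoter window of another gene. Of 20 genes listed, 19 were found by name, and 2 had a final promoter summit, against 5.58% of all coding genes. These were cbp-1, the p300/CBP acetyltransferase, at 162 (rank 49, with 78.3 in replicate 1 and 80.2 in replicate 2), in a window it shares with R10E11.10, and smo-1, the SUMO modifier, at 46.5 (23.1 and 22.3). Final summits in the gene body were found at acs-2, cbp-1 itself (66.4, rank 538) and the coregulators din-1 (60.8) and mdt-15 (59.2). That of acs-2, a fasting-induced target of nhr-49, was at 130 (at most 25.1 in replicate 1 and 76.1 in replicate 2). It lay nearest to lsm-5 and in its promoter window, and acs-2 had no pooled promoter summit. The din-1 summit lay 14277 bp into the gene, nearest to the 5′ end of F07A11.5. The promoter windows of F07A11.10 and F07A11.15 also held it. That of mdt-15 lay past the 3′ end of R12B2.8 and nearest to the 5′ end of R12B2.13. None of these 3 can be assigned to either gene. Of all coding genes, 1.99% had a final body summit. A pooled promoter summit was found at 6 of the 19 and a pooled body summit at 9, against 24.9 and 22.8% of all coding genes. The list was chosen with earlier results of these data known, so its counts support no statement beyond these genes. The coregulator gei-8 had a pooled body summit of 33.4. Of 5 genes of hormone synthesis, only emb-8 had a pooled summit, 23.5 in the promoter and 31.2 in the body. daf-9, daf-36 and dhs-16 had no summit in any list. Of the desaturase targets of nhr-49 and nhr-80, fat-6 had 23.6, nearer to ZK822.9, and fat-5 had none. The SUMO pathway genes ubc-9 and gei-17 had body summits of 23.5 and 21.9.

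Compared with 2 other large gene families, the receptors had a share between theirs in the final list. Of all coding genes, 5.58% had a final promoter summit and 24.9% a pooled one. Of 88 homeobox and bHLH genes named ceh- or hlh-, 3 (3.41%, 0.709 to 9.64%) had a final promoter summit and 13 (14.8%, 8.11 to 23.9%) a pooled one. Of 193 str chemoreceptor genes, 0 had a final promoter summit (exact 95% interval 0 to 1.89%), and 18 (9.33%, 5.62 to 14.3%) a pooled one. The pooled share of the receptors was 20.9%, with an interval from 16.2 to 26.2%. This interval overlaps that of the homeobox and bHLH genes, but not that of the str genes. The final shares of all 3 families have overlapping intervals.

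The receptor hexamer was found under few of the member summits. AGGTCA on either strand was found within 200 bases centred on 4 of 56 distinct member promoter summits (7.14%), against 4.63% of final peaks and 4.66% of the other pooled peaks. In the promoters of all members, 250 bases before to 50 after the 5′ end, it was found in 29 of 273 (10.6%), against 8.27% of all coding promoters. AGACGCAG was found at 7 of 56 member promoter summits (12.5%), against 11.1% of final peaks and 2.92% of the other pooled peaks. In member promoters of 300 bases it was found in 27 of 273 (9.89%), against 3.54% of all coding promoters. The summits with it include those of nhr-1, nhr-42, nhr-58, nhr-98 and nhr-182, and those in nhr-17 and nhr-34. Each match is a description of letters, and this motif was chosen after the sequences of nhr-1 and nhr-17 were seen.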

How the data were processed

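Whole L1 larvae of strain OP217 were assayed as 2 biological replicates of 1 group. Per the description files deposited with the samples, the authors called peaks on ce11 in each replicate and in both together against a control, and thresholded the pooled list on the irreproducible discovery rate. The sources used here do not name the caller, the aligner, the threshold or the depth. Control, reads and ce10 lists were not used here. The deposited signal (scale not given) was used to rank entries, and the deposited −log10 q-value to set the limit of 0.05. Summits are column 2 plus column 10 plus 1. Genes are those of Ensembl release 115 on WBcel235. Where a gene had several summits in a window, the highest signal was taken.

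The members and lists were chosen with earlier results of these data known. Named members are those with a final summit, all conserved ones, the 15 highest promoter and 5 highest body signals, the functional lists, the highest member of each run of 4 or more, up to 5 members found within the first 5000 ranks of 1 replicate only, and pathway genes with a summit. Chromosomes, motifs and members by transfer RNA genes were picked after values were seen. Shares carry Clopper-Pearson 95% intervals. No test was made: there is 1 group, and genes are not replicates. The window counting was tested on simulated data with summits planted in known windows. Python 3.11.15, numpy 2.4.6, pandas 2.3.3 and SciPy 1.17.1 were used. Receptor proteins were not analysed here.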

Additional observations from a re-analysis of the deposited data

How the results depend on the processing

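The counts of members with a pooled promoter summit (57 of 273) and of tandem members with one (25 of 128) stayed within 1.5 times under a window of 500 bp upstream, any overlap with the window, the nearest 5′ end, any transcript's 5′ end and either replicate alone, and the tandem count also under runs chained within 10 or 50 kb and with all members on V. In the upper 50% of each list by signal, 31 members, 15 tandem members and 21 members in both replicates had a promoter summit, and 1 had a final one. With entries of a q-value of 0.05 or lower, chosen after seeing the data, these were 6, 1 and 2, and 0 conserved members. With a window of 500 bp upstream, 1 conserved member had a pooled promoter summit and 27 members had one in both replicates. Counted once per run, 12 of 30 runs had a pooled summit. Final body summits without one in the promoter window were at 3 members by any overlap and at 0 by the nearest 5′ end. With the highest entries of a single replicate in place of the final or pooled list, final promoter members ranged from 2 to 6, final body members were 3 either way, pooled promoter members ranged from 55 to 57, conserved members from 1 to 2, and tandem members from 25 to 28. No paired analysis was possible because there is 1 group. Reads were not used, so the depth behind each signal is unknown.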
